A study of Mus musculus with 24 samples.

Results

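The Eph receptors and their membrane-bound ligands, the ephrins, were described here through 10 genes: the receptors Epha1, Epha2, Epha7, Ephb2, Ephb3 and Ephb4 and the ligands Efna1, Efna5, Efnb1 and Efnb2. They were read from every probe set annotated with one of those symbols. The 45137 probe sets other than controls on both array designs named 18194 genes. Of the 10 genes 9 had a probe set, 21 in all, with 19 on the design called MA and 2 on the design called MB. No probe set carried the symbol of Ephb2 alone in the annotation used here, so its intensity was not analysed. The genes were chosen by their intensities in the 4 groups, the same values reported below, so these values and calls are a description and carry no test of the genes as a set. Gene positions are those of RefSeq's annotation of GRCm38.p6.

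The RNA came from C2C12 cells, a mouse myoblast line whose cells can leave the cell cycle and fuse into multinucleated myotubes, and the series asks whether calorie restriction alters how such muscle precursors differentiate. The 4 groups were DM at 5 mM glucose, GM at 5 mM glucose, DM at 25 mM glucose and GM at 25 mM glucose, with 3 cultures each and every culture on both designs. The labels give the media only as DM and GM, which in this line usually stand for differentiation and growth medium, and state neither the days in culture nor the other medium components. All groups are 1 cell line, and the labels do not say whether the cultures were grown apart, so the spread between them may be technical.

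Eph receptors are receptor tyrosine kinases and ephrins are held on the surface of the neighbouring cell, so the pair signals on contact and in both directions. A-class ephrins hang on a lipid anchor and mostly bind A-class receptors, whereas B-class ephrins cross the membrane and mostly bind B-class receptors, with EphA4 among the receptors that bind both. The signals reach the actin skeleton and act in cell repulsion, cell sorting, vessel growth, axon guidance and the placement of muscle precursors.

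Values are probe set intensities as deposited, on a linear scale with no unit, and the scaling behind them is not given in the sources used here. Changes are differences of log2(intensity + 20), DM minus GM or 5 mM minus 25 mM, with a standard error (SE) from 1 limma fit per design over its 12 arrays. Called means a Benjamini-Hochberg adjusted p under 0.05 over all probe sets tested on that design. Probe sets were tested when their mean over the 12 arrays exceeded the 40th percentile of the design, 35.5 on MA and 63.7 on MB. Of the 21 probe sets 13 passed, and each of the 9 genes had at least 1 of them. Each gene was read from its brightest tested probe set, on MA where there was one, which places Epha7 and Efna5 on MB and the other 7 on MA. The 2 designs were fitted separately, and no level is compared between probe sets.

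Myotube markers were high in DM and low in GM. The summed intensity on MA of 6 of them, all called higher in DM at either glucose level, was 19826 to 44025 over the 6 DM cultures, against 79.8 to 216 over the 6 GM cultures. Of 5 myoblast markers 3 were called at either glucose level, 2 higher in DM (Des and Cdh15) and 1 lower (Mki67, a marker of dividing cells). Mki67 also differed between the DM groups, with means of 138 at 5 mM and 278 at 25 mM, a called change of -0.92 (SE 0.13). The difference between its medium changes at the 2 glucose levels, -1.04 (SE 0.18), was called as well. Markers of endothelial cells, where several of the Eph and ephrin genes are well known, were low: 6 genes summed on MA to 89.5 to 163 in DM and 98.3 to 180 in GM, and none of them read above 66.2. Of those 6 only Kdr had a tested probe set, and it was not called. The 5 neural markers summed on MA to 132 to 204 in DM and 110 to 217 in GM, with 0 of 3 tested called at either glucose level (limma, 0 also at an unadjusted p under 0.05). Rbfox3 enters that sum through a dim probe set, with a mean of 9.87. Its brightest tested probe set is on MB and had group means of 274 to 286, so the sum does not show that this marker was low. The 5 markers of blood cells summed on MA to 121 to 225 in DM and 197 to 320 in GM, 1 of the 2 tested (Cd14) was called lower in DM at both glucose levels, and their part in the results was not tested. The control for 18S ribosomal RNA split the cultures in a way the labels do not explain. On MA 4 cultures, here the low-18S cultures, read 23.0 to 48.1 (DM replicate 2, GM replicate 1 and GM replicate 2 at 5 mM, and DM replicate 3 at 25 mM), and the other 8 read 279 to 1267. The same 4 cultures also had a lower log2 ratio of 3′ to 5′ signal for Actb on MA, -0.05 to 0.12 against 0.16 to 0.55. For Gapdh on MB that ratio was -0.36 to -0.24 against -0.08 to 0.15. Their median intensities on MB, 69.0 to 77.9, lay below the 83.1 to 96.5 of the other 8. The split thus reaches beyond the 18S control, and its cause was not tested. For the listed Eph and ephrin genes, values without the low-18S cultures stand below where they differ in call. For all other genes at most counts of calls are given without those cultures.

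Across the 9 genes, DM against GM at 5 mM left 4 genes called, all lower in DM (Epha1, Epha2, Efna1 and Efna5), while 23.2% of all 12851 genes tested were called and 13.7% were called lower. At 25 mM 5 genes were called, Ephb3 higher and Epha1, Epha2, Ephb4 and Efna1 lower in DM, with 28.1% of all genes called in either direction, 12.2% higher and 15.9% lower. The share called depends on the design: at 25 mM it was 39% of genes read on MA and 9.48% of those read on MB, and at 5 mM 31.7% and 8.6%. Of the 7 genes read on MA 3 were called at 5 mM and 5 at 25 mM, and of the 2 on MB 1 (Efna5) was called at 5 mM and none at 25 mM. The median change of the 9 genes was -0.56 at 5 mM and -0.85 at 25 mM, where all genes had medians of -0.03 and -0.11. Every DM culture lay beyond every GM culture, without overlap, for 7 of the 9 genes at 5 mM and 6 at 25 mM, as for 37.1% and 42.2% of all genes. Both comparisons separate the same cultures that chose the genes, so nothing is read from these shares. In bulk cultures fewer cells of a kind and less RNA per cell cannot be told apart.

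**Figure D1:**
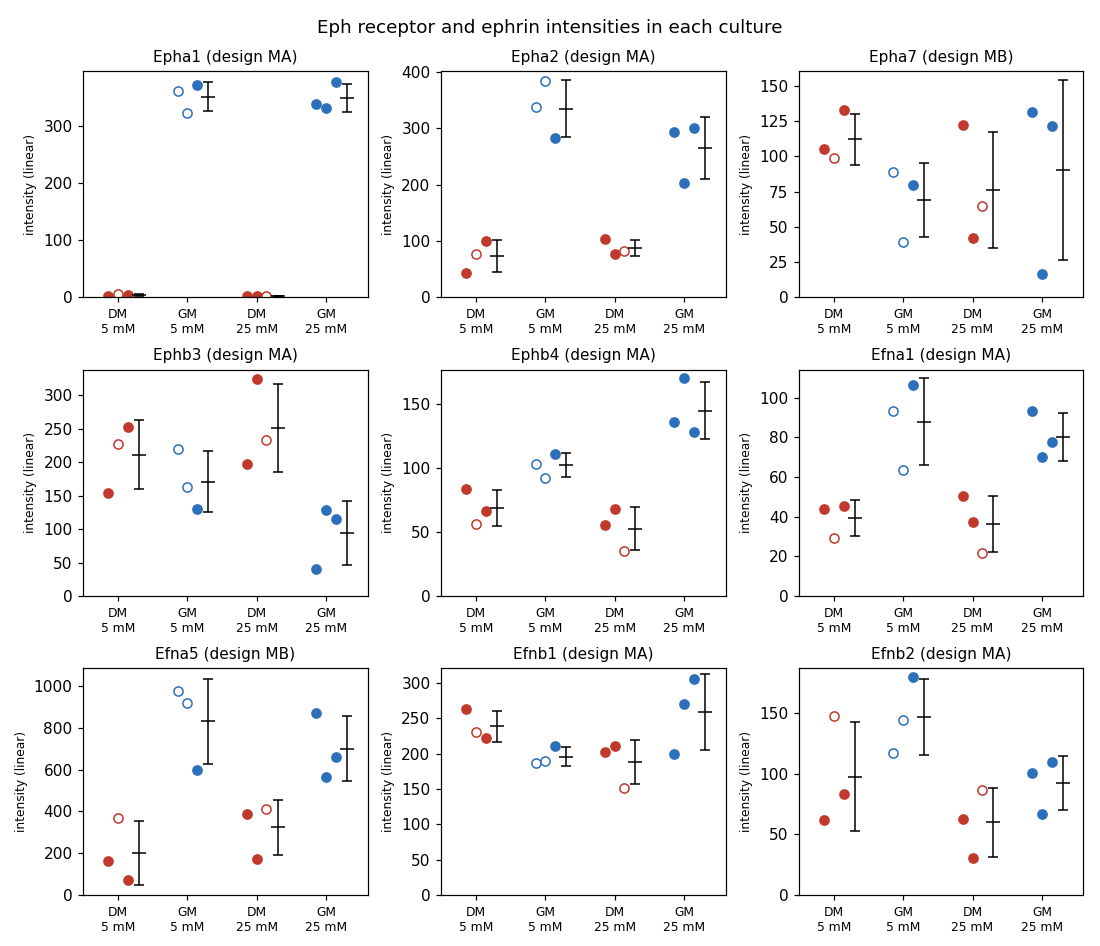
Intensity (linear, vertical axis) of each gene's representative probe set in the 12 cultures, by group; each point is 1 culture (red DM, blue GM, open symbols the low-18S cultures), and bars are the mean and SD of 3. Epha1, Epha2, Ephb4, Efna1 and Efna5 lay lower in DM than in GM at both glucose levels with no overlap, and Ephb3 lay higher in DM at 25 mM only.

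Epha1 (chr6:42358487-42373314), the first Eph receptor described, separated the media most among the 9 genes. Its probe set 1422917_at read 3.13, 6.51 and 4.55 in DM at 5 mM, against 362, 323 and 372 in GM at 5 mM. It read 1.94, 2.79 and 2.33 in DM at 25 mM, against 339.8, 333 and 379 in GM at 25 mM. All 6 DM cultures were near the bottom of the scale, and the 6 GM cultures lay between 323 and 379, a level that hardly differed between the glucose concentrations (353 ± 25.8 at 5 mM and 350.4 ± 24.9 at 25 mM, SD, n = 3 each). The change was -3.91 (SE 0.16) at 5 mM and -4.05 (SE 0.16) at 25 mM, both called. DM means of 4.73 ± 1.69 and 2.35 ± 0.426 lay far below the filter level of 35.5, so the probe set was tested through its GM cultures alone, and the files used here give no detection calls. The size of this change rests on the pseudocount: with 1 in place of 20 it was -5.99 and -6.72, and with 64 it was -2.60 and -2.64.

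The second tested probe set of Epha1, 1432399_a_at, averaged 17.5 ± 11.2 in DM against 110.4 ± 9.43 in GM at 5 mM, and 24.9 ± 18.7 in DM against 95.6 ± 16.3 in GM at 25 mM (SD, n = 3 each). Its changes were -1.85 (SE 0.29) and -1.43 (SE 0.29), both called, and it too had DM means below the filter level and was tested through its GM cultures. The third, 1432400_at, was below the filter, with group means of 20.1 in DM and 40.2 in GM at 5 mM and 32.9 in DM and 44.0 in GM at 25 mM. All 3 probe sets had lower DM means.

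Epha2 (chr4:141301221-141329384), a receptor of A-class ephrins studied mostly in epithelia and tumours, fell in DM as well. It read 43.7, 77.7 and 100.04 in DM at 5 mM, against 337, 383 and 283 in GM at 5 mM, a change of -1.96 (SE 0.22). In DM at 25 mM it read 104, 76.2 and 82.1, against 293, 202 and 299.5 in GM at 25 mM, a change of -1.40 (SE 0.22). The highest DM culture, at 104, lay below the lowest GM culture, at 202, so the media did not overlap at either glucose level. Epha2 has 1 probe set, and it was called at both glucose levels in all 23 other settings, the leaving out of each culture included.

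The bases before the annotated genes Epha1 and Epha2, which were both called lower in DM at either glucose level, are shown so that the letters of the E-box, bound by muscle regulators of the MyoD family, and of the TEAD motif can be seen. They are the part of RefSeq's promoter windows on GRCm38.p6 that lies before the gene as located above, 5′ to 3′ in the gene's sense, with 204 bases at chr6:42373315-42373518 on the minus strand for Epha1 and 250 bases at chr4:141300971-141301220 on the plus strand for Epha2. Capitals mark CANNTG (the E-box, which reads the same form on both strands) and GGAATG or its reverse complement CATTCC (a TEAD motif).
Epha1: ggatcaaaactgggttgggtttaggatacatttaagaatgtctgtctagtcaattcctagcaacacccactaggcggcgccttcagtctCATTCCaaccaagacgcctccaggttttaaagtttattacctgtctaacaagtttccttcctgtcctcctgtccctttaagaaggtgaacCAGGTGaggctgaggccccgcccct
Epha2: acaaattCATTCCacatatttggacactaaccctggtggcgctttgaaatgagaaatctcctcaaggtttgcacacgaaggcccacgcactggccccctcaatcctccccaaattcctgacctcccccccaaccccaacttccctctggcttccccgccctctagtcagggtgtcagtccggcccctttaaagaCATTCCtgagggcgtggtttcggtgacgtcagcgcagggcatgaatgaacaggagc
Epha1 held the E-box CAGGTG 25 bases and CATTCC 115 bases before the gene. Epha2 held no E-box and CATTCC at 243 and 56 bases before the gene. The start site that RefSeq's table uses lies 46 bases inside the gene for Epha1 and 175 bases inside it for Ephb3, so the CATCTG of the Epha1 window and the CAACTG and CAGCTG of the Ephb3 window are not before the annotated gene, and they are not shown. Over the promoter table's 300-base windows, which run on 50 bases past the table's start site, the 10 genes had 12 windows, of which 5 held CANNTG, 1 held CAGCTG, 3 held CACCTG or its complement CAGGTG and 3 held GGAATG or its complement. The letters CAGCTG and CACCTG are themselves forms of CANNTG, so these counts overlap. They include the window of Ephb2, a gene without intensities here, which held CAGGTG. Of all 32851 windows 72.3% held CANNTG, 16.3% CAGCTG, 20.2% CACCTG or CAGGTG and 14.7% GGAATG or its complement. A match of letters is a description and shows no binding.

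Epha7 (chr4:28813066-28967503), a receptor best known from the developing brain, was read from 1443485_at on MB, since its 3 probe sets on MA had group means of only 0.587 to 18.02. It read 105, 98.6 and 133 in DM at 5 mM, against 89.0, 39.6 and 79.4 in GM at 5 mM. The DM cultures all lay above the GM cultures there, yet the change of 0.60 (SE 0.56) was not called. In DM at 25 mM it read 122, 42.1 and 65.1, against 132, 16.8 and 122 in GM at 25 mM, where the cultures of each medium spread as widely as the media together. That change was -0.03 (SE 0.56), and its sign turned in 9 of 22 other settings.

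Ephb3 (chr16:21204620-21223309), a B-class receptor known for sorting cells along the intestinal crypt, was the 1 gene of the 9 called higher in DM. In DM at 25 mM it read 197, 324 and 233, against 39.9, 129 and 115 in GM at 25 mM. The lowest DM culture lay above the highest GM culture, and the change was 1.32 (SE 0.31). In DM at 5 mM it read 154, 228 and 252, against 219, 164 and 130.0 in GM at 5 mM. These overlapped, and the change of 0.28 (SE 0.31) was not called. Within GM, Ephb3 averaged 171 ± 45.1 at 5 mM against 94.8 ± 48.0 at 25 mM (SD, n = 3 each), with no overlap, a change of 0.82 (SE 0.31) that was not called. The GM cultures at 219 and 164 were low-18S cultures. The other GM culture at 5 mM, at 130.0, lay barely above the highest GM culture at 25 mM, at 129. The difference between the medium changes at the 2 glucose levels was -1.05 (SE 0.44) and was not called either, so the size of the rise is not shown to depend on glucose. Without GM replicate 1 of 25 mM, the culture at 39.9, these were 0.40 for glucose in GM and -0.63 for the difference.

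Ephb4 (chr5:137350109-137374522), the receptor of Efnb2 that marks veins, went the other way. In DM at 25 mM it read 55.3, 68.1 and 35.2, against 136, 170.2 and 128 in GM at 25 mM, a change of -1.20 (SE 0.20) that was called. In DM at 5 mM it read 83.6, 56.1 and 66.2, against 103, 92.6 and 111 in GM at 5 mM. The media were apart there too, with a change of -0.47 (SE 0.20) that was not called. With the low-18S cultures taken as a block in the fit it was -0.59 and was called. GM at 5 mM, at 102 ± 9.35, lay below GM at 25 mM, at 145 ± 22.3 (SD, n = 3 each), with no overlap and a change of -0.42 (SE 0.20), not called. The interaction, here the 5 mM minus 25 mM change of DM less that of GM, was 0.72 (SE 0.29) and was not called.

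Among the ligands, Efna1 (chr3:89271730-89280951), an A-class ephrin first found as a gene induced by tumour necrosis factor, was lower in DM at both glucose levels. It read 44.1, 29.2 and 45.4 in DM at 5 mM, against 93.3, 63.7 and 106 in GM at 5 mM. It read 50.3, 37.2 and 21.9 in DM at 25 mM, against 93.4, 69.9 and 77.6 in GM at 25 mM. Every DM culture lay below every GM culture, and the change was -0.85 (SE 0.24) at either level, called at both. The calls rest on few cultures: at 25 mM the call was lost without DM replicate 3, at -0.66, and at 5 mM without DM replicate 2 (-0.71), GM replicate 1 (-0.80) or GM replicate 3 (-0.72). The other probe set of Efna1 was below the filter, with means of 17.1 in DM and 47.4 in GM at 5 mM and 23.2 in DM and 49.3 in GM at 25 mM.

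Efna5 (chr17:62602957-62881317), an A-class ephrin known for guiding axons to their place in the brain's maps, was read on MB. It read 164, 368 and 69.8 in DM at 5 mM, against 975, 919.8 and 597 in GM at 5 mM, a called change of -2.16 (SE 0.41). In DM at 25 mM it read 385, 172 and 413, against 872, 566 and 662 in GM at 25 mM, a change of -1.13 (SE 0.41) that was not called. The media did not overlap at either glucose level, but the DM cultures at 5 mM spread from 69.8 to 368. The change at 25 mM passed the threshold, at -1.45, with the low-18S cultures as a block, and, at the same -1.13, in a fit of only the arrays compared and without DM replicate 2 or without DM replicate 3 of 5 mM, cultures that enter only through the common spread. The probe set of Efna5 on MA was dim, with group means of 10.3 to 17.9, and where it was read instead (no filter) the changes were 0.22 at 5 mM and 0.05 at 25 mM.

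Efnb1 (chrX:99136061-99149022), the X-linked B-class ephrin whose loss in people gives a craniofacial syndrome, had 3 tested probe sets, which differed in their calls. The brightest, 1418286_a_at, read 263, 231 and 221 in DM at 5 mM, against 186, 189.6 and 211 in GM at 5 mM. It read 202, 210.0 and 152 in DM at 25 mM, against 199.7, 269.7 and 306 in GM at 25 mM. DM was thus above GM without overlap at 5 mM (0.26, SE 0.16) and overlapped with it at 25 mM (-0.41, SE 0.16), and neither change was called. Without GM replicate 1 the change at 25 mM was -0.58 and was called. The dimmest, 1418285_at, averaged 53.7 ± 24.4 in DM against 151 ± 47.2 in GM at 25 mM (SD, n = 3 each) and was called lower there, at -1.22 (SE 0.28), with 0.06 (SE 0.28) at 5 mM. The third, 1451591_a_at, gave 0.42 (SE 0.23) at 5 mM and -0.12 (SE 0.23) at 25 mM, not called. All 3 had a positive interaction, of 0.68, 0.55 and 1.28, and none was called.

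Efnb2 (chr8:8617235-8661242), the B-class ephrin that marks arteries and binds Ephb4, had overlapping media at both glucose levels. It read 61.5, 148 and 82.9 in DM at 5 mM, against 117, 144 and 179 in GM at 5 mM, and 62.8, 30.3 and 86.7 in DM at 25 mM, against 100.4, 66.8 and 109.8 in GM at 25 mM. The changes of -0.56 (SE 0.30) and -0.54 (SE 0.30) were not called. At 5 mM the change was -0.85 and called without DM replicate 2, the low-18S culture at 148, and at 25 mM it was -0.78 and called when the fit held only the high-18S cultures, which leaves out DM replicate 3. Other cultures moved it the other way, to -0.33 without DM replicate 1 at 5 mM and to -0.24 without DM replicate 2 at 25 mM, neither called. The second tested probe set, 1419639_at, gave -0.60 (SE 0.41) at 5 mM and 0.02 (SE 0.41) at 25 mM, and 2 further ones were below the filter.

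**Figure D2:**
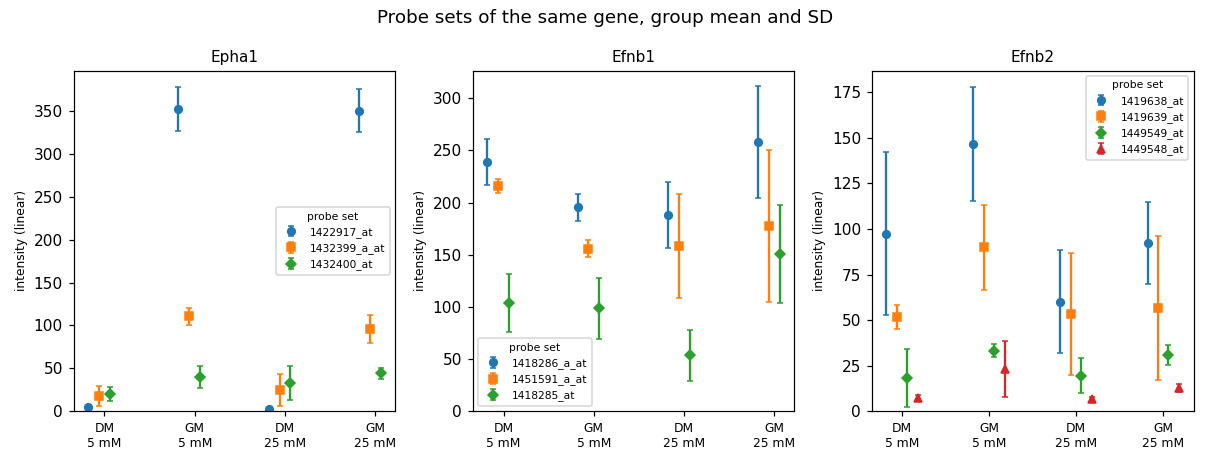
Group mean and SD (n = 3) of intensity (linear, vertical axis) for every probe set of Epha1, Efnb1 and Efnb2 on MA. The 3 probe sets of Epha1 share lower DM means, while those of Efnb1 part at 25 mM, where 1418285_at averaged 53.7 in DM and 151 in GM.

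The order of the 4 group means fell into a few patterns. Epha1 and Efna1 ran DM at 25 mM, DM at 5 mM, GM at 25 mM, GM at 5 mM, and Epha2 and Efna5 ran DM at 5 mM, DM at 25 mM, GM at 25 mM, GM at 5 mM. In all 4 the step between the media was the one whose neighbouring groups did not overlap. For Epha1 the DM groups were also apart, at 4.73 in DM at 5 mM against 2.35 in DM at 25 mM. Both means lay far below the filter level of 35.5, and the change between them was 0.14 (SE 0.16), not called. Its second tested probe set overlapped there, with means of 17.5 in DM at 5 mM and 24.9 in DM at 25 mM. Ephb4 ran DM at 25 mM, DM at 5 mM, GM at 5 mM, GM at 25 mM, with overlap only between the DM groups. Ephb3 ran GM at 25 mM, GM at 5 mM, DM at 5 mM, DM at 25 mM, with only the lowest step free of overlap. Epha7 and Efnb2 overlapped at every step of their order, and Efnb1 was apart only between GM at 5 mM and DM at 5 mM. Over the 12 cultures the log2 values of Epha1 correlated with those of Epha2 (Pearson r = 0.94), Efna1 (0.88), Ephb4 (0.85) and Efna5 (0.79) and inversely with Ephb3 (-0.63), with -0.21 for Epha7, 0.18 for Efnb1 and 0.54 for Efnb2, a description in which the points share the 4 groups. Within groups, as deviations from the group means, the correlation with Epha2 was 0.21, with Efna1 0.08, with Ephb4 -0.26, with Efna5 0.10 and with Ephb3 0.29.

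Glucose alone moved none of the 9 genes past the threshold. In DM, 5 mM against 25 mM gave 0 called genes of 9 (limma) and 0 at an unadjusted p under 0.05, with 1.35% of all genes called. In GM 0 of 9 were called and 2 had an unadjusted p under 0.05, with 0.00778% of all genes called, a single gene. Low-18S cultures numbered 2 in GM at 5 mM and 0 in GM at 25 mM. Glucose and the 18S reading are therefore not cleanly told apart in GM. The interaction gave 0 of 9, with 3 at an unadjusted p under 0.05 and 0.467% of all genes called. In DM the changes ran from -0.80 (SE 0.41) for Efna5 to 0.55 (SE 0.30) for Efnb2, and in GM from -0.42 (SE 0.20) for Ephb4 to 0.82 (SE 0.31) for Ephb3. Groups were apart without overlap for 2 of the 9 genes in DM, where 14.1% of all genes were, and for 3 of the 9 in GM, where 16.5% were. Those in DM were Efnb1 and Epha1, the latter at means far below the filter level. Efnb1, Ephb4 and Epha7 had lower means at 5 mM in GM and higher ones at 5 mM in DM, with Efnb1 at 0.32 (SE 0.16) in DM and -0.35 (SE 0.16) in GM, Ephb4 at 0.30 and -0.42 and Epha7 at 0.53 and -0.10, none called.

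**Figure D3:**
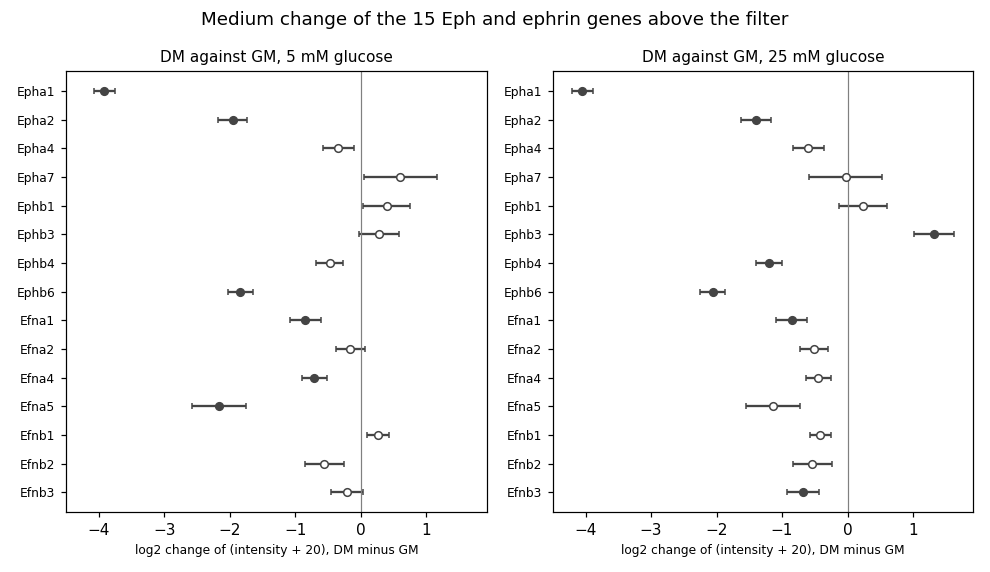
Change of log2(intensity + 20), DM minus GM (horizontal axis), for the 15 Eph and ephrin genes above the filter, at 5 mM (left) and 25 mM (right); points are limma estimates, bars 1 SE, and filled points were called. The called genes lie left of 0, lower in DM, at both glucose levels except Ephb3 at 25 mM, at 1.32.

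The other 12 Eph and ephrin genes had 24 probe sets, and 6 of them had a tested one. At 5 mM 2 of the 6 were called, Ephb6 and Efna4, both lower in DM, and at 25 mM 2 were called, Ephb6 and Efnb3, both lower in DM. Either count is 33.3%, beside 23.2% of all genes tested at 5 mM and 28.1% at 25 mM. All but Ephb1 were read on MA, where 31.7% and 39% of genes were called. The 33.3% includes Ephb1, read on MB, so it is not the same kind of share, and nothing is read from a count over 6 genes. Ephb6 (chr6:41603834-41620509), a receptor whose kinase domain is inactive, read 60.6, 81.2 and 70.0 in DM at 5 mM, against 305, 285 and 318 in GM at 5 mM, a change of -1.84 (SE 0.19). It read 59.1, 37.0 and 47.2 in DM at 25 mM, against 201, 255 and 341 in GM at 25 mM, a change of -2.06 (SE 0.19). No DM culture reached the GM range, and after Epha1 this was the largest fall of the family at 25 mM. Efna4, an A-class ephrin, averaged 68.5 ± 4.21 in DM against 125 ± 6.27 in GM at 5 mM (SD, n = 3 each), at -0.71 (SE 0.20), and its -0.44 (SE 0.20) at 25 mM was not called. Efnb3, the B-class ephrin of the midline of the nervous system, averaged 32.5 ± 10.3 in DM against 63.5 ± 8.95 in GM at 25 mM, at -0.68 (SE 0.24), just past the threshold and with the DM mean below the filter level. In most other settings the count at 25 mM was 1 of the 6. The counts of calls without the low-18S cultures stand in the section on processing, and they were lower at both glucose levels. Which of the 6 genes kept a call there is not given. The calls of Efna4 at 5 mM and Efnb3 at 25 mM are therefore not shown to hold without those cultures.

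Epha4, which binds ephrins of both classes, had changes of -0.34 (SE 0.24) at 5 mM and -0.60 (SE 0.24) at 25 mM, Efna2 of -0.16 (SE 0.21) and -0.51 (SE 0.21), and Ephb1 of 0.39 (SE 0.36) and 0.23 (SE 0.36), none called. Epha3, Epha5, Epha6, Epha8, Epha10 and Efna3 had no probe set above the filter, and their highest group means ran from 19.8 to 77.6. Over the family, 8 receptors and 7 ligands were tested. At 5 mM 3 receptors and 3 ligands were called, all lower in DM. At 25 mM 5 receptors, 1 of them higher in DM, and 2 ligands were called. That is 40% of the family's 15 tested genes at 5 mM and 46.7% at 25 mM, beside 23.2% and 28.1% of all genes tested, or 31.7% and 39% of those read on MA. Among the 15 are the 9 listed genes, which were chosen by these same intensities, and Epha7, Efna5 and Ephb1 were read on MB. Nothing is therefore read from the family's share.

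The proteins through which Eph receptors and ephrins act were taken as a list of 51 genes from general knowledge of the pathway, of which 46 were on the arrays and 43 had a tested probe set. At 5 mM 15 of the 43 were called, 4 higher and 11 lower in DM. That is 34.9% beside 23.2% of all genes, of which 9.5% were higher. At 25 mM 19 were called, 6 higher and 13 lower, which is 44.2% beside 28.1%. Most were read on MA, where more is called: 14 of 35 (40%) beside 31.7% at 5 mM and 16 of 35 (45.7%) beside 39% at 25 mM. Their median change was -0.22 at 5 mM and -0.32 at 25 mM. The share on MA was thus near that of all genes on MA. None was called for glucose or the interaction, with 2 in DM, 1 in GM and 1 in the interaction at an unadjusted p under 0.05 (limma).

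Of the 17 kinases and adaptors, 6 were called at 5 mM, 3 in each direction, and 8 at 25 mM, 3 higher and 5 lower in DM. That is 35.3% and 47.1% beside 23.2% and 28.1% of all genes tested, or 31.7% and 39% of those read on MA. Inppl1 (SHIP2), a lipid phosphatase that binds EphA2 and slows its uptake into the cell, read 1723, 1611 and 1546 in DM at 5 mM, against 414, 456 and 348 in GM at 5 mM. It read 1763, 1883 and 1691 in DM at 25 mM, against 376, 330.2 and 370.2 in GM at 25 mM. The lowest DM culture, at 1546, lay far above the highest GM culture, at 456, with changes of 1.96 (SE 0.12, limma adjusted p = 2.16e-08) and 2.25 (SE 0.12, adjusted p = 4.82e-09). The Src family kinase Fyn was higher in DM, by 0.87 (SE 0.14) at 5 mM and 0.57 (SE 0.14) at 25 mM, as was the Abl kinase Abl2, by 0.88 (SE 0.22) and 0.90 (SE 0.22), all called. Rasa1, the Ras GTPase activator that EphB receptors recruit, was lower in DM, at -1.65 (SE 0.23) and -1.02 (SE 0.23), as were Abl1, at -0.81 (SE 0.20) and -0.72 (SE 0.20), and Pik3r1, a regulatory subunit of PI 3-kinase, at -0.98 (SE 0.22) and -0.76 (SE 0.22), all called. Src itself was called lower at 25 mM alone, at -0.77 (SE 0.20), with -0.33 at 5 mM, and no difference between the glucose levels was called.

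Of the 4 phosphatases tested, 3 were called at both glucose levels, where 23.2% of all genes tested were called at 5 mM and 28.1% at 25 mM, or 31.7% and 39% of those read on MA. Ptpn1, the phosphatase PTP1B that acts on EphA receptors, was lower in DM, at -0.63 (SE 0.12) and -0.66 (SE 0.12), and so was Ptpn13, which binds B-class ephrins, at -1.34 (SE 0.27) and -0.90 (SE 0.27). Ptpn11, the phosphatase SHP2, was higher, at 0.66 (SE 0.16) and 0.56 (SE 0.16). Of 7 genes for the cleavage or the partners of ephrins, 3 were called lower in DM at both levels, where 13.7% and 15.9% of all genes tested were called lower. These were Sdcbp (syntenin), which binds the tails of B-class ephrins, at -1.09 (SE 0.11) and -0.94 (SE 0.11), Rgs3, the regulator of G protein signalling that Efnb1 binds, at -1.08 (SE 0.16) and -1.19 (SE 0.16), and Dvl2, at -0.49 (SE 0.16) and -0.59 (SE 0.16). Rhbdl2, a rhomboid protease that can cleave B-class ephrins, was called higher at 25 mM alone, with 311 ± 82.8 in DM against 55.3 ± 23.1 in GM (SD, n = 3 each) and a change of 2.15 (SE 0.53), and its 0.55 (SE 0.53) at 5 mM was not called.

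**Figure D4:**
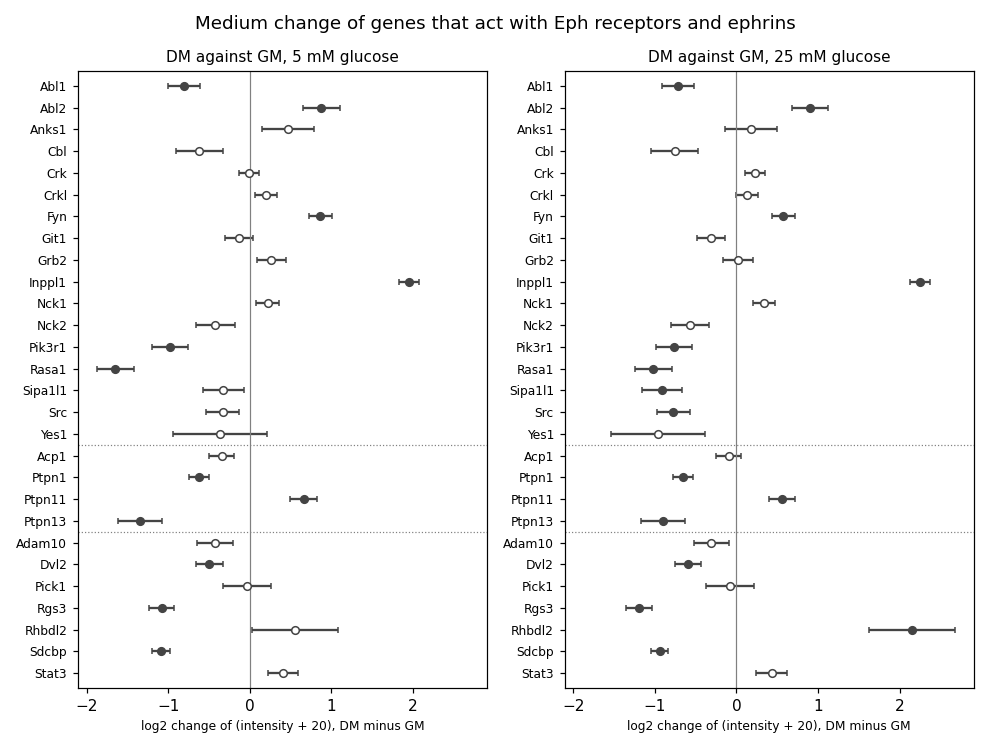
Change of log2(intensity + 20), DM minus GM (horizontal axis), for the tested effector genes described here at 5 mM (left) and 25 mM (right), with 1 SE; filled points were called, and dotted lines part the kinases and adaptors, the phosphatases and the genes of ephrin processing and partners, from top to bottom. Inppl1, at 1.96 and 2.25, is the rightmost called point at both glucose levels.

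The genes whose log2 values followed a member most closely over the 12 arrays of MA were sought among the other 8116 genes read there, for the gene with the largest fall and the one with the largest rise at 25 mM. For Epha1 they were Ptgr1 (Pearson r = 0.998), Cd34 (0.996), Igfbp2 (0.996), Prrx2 (0.994) and Eif4b (0.994). With the group means taken out these fell between -0.04 and 0.53, so the likeness lies mostly between the media. For Ephb3 they were Chn1 (0.915), Tmem175 (0.912), Ndufb5 (0.891), Idh3g (0.886) and Synj2bp (0.885), and within groups the correlations were 0.71 to 0.91. The genes were picked by their correlation over these same arrays, so the within-group values are part of what chose them. Chn1, which speeds the hydrolysis of GTP by Rac and is on the list of 51 genes above, averaged 64.5 ± 3.88 in DM against 38.5 ± 13.8 in GM at 25 mM (SD, n = 3 each), at 0.56 (SE 0.21), and was not called (limma adjusted p = 0.0528). The points share groups and arrays, and the correlations are a description.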

How the data were processed

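RNA of C2C12 cultures was labelled with biotin and hybridised to 2 array designs, 12 arrays each. The deposited values are probe set intensities on a linear scale. The software, scaling and steps the authors used are not given in the sources used here. Values were used as log2(intensity + 20) without further scaling. Control probe sets, 64 a design, were left out. On MA 20380 probe sets named 1 gene, 691 several and 1555 none; on MB these were 14661, 245 and 7605, and genes were taken only from probe sets naming 1, by GEO's platform annotation. RefSeq of GRCm38.p6 held the Entrez ID of 20351 and 14486 of them.

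Each design was fitted with limma 3.58.1 (R 4.3.3) as 4 group means over 12 arrays, with eBayes and a trend (8 residual and 6.17 prior degrees of freedom on MA, 10.4 prior on MB), 5 contrasts, two-sided tests and Benjamini-Hochberg adjustment over 13575 probe sets on MA and 13506 on MB. Samples were grouped by the medium, glucose and replicate number in their titles. The fit was tested on simulated data with known changes. The number of arrays limits the precision. On MA the median intensity of an array was 48.7 to 61.2 and the correlation between cultures of a group 0.952 to 0.987. On MB the medians were 69.0 to 96.5 and the correlations 0.797 to 0.919. No 2 columns held the same values.

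The members and lists were chosen with earlier results of these data known. Named were every Eph and ephrin gene, from each effector list up to 4 genes per direction called at 25 mM by smallest adjusted p, and the 5 closest genes for the largest rise and fall. Of the effectors 1 list is not reported here on its own, and its genes enter only the counts over all effectors. The alternatives changed the pseudocount to 1 or 64, dropped the filter or set it at the 60th percentile, and normalized by quantiles or centred arrays on the median. Others left out the eBayes trend, fitted each comparison alone, and took the replicate number or the 18S reading as a block. The last used the high-18S cultures alone, left out each culture in turn and read each gene's other probe sets.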

Additional observations from a re-analysis of the deposited data

How the results depend on the processing

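Over 23 other settings the 9 genes gave 4 to 6 calls for DM against GM at 25 mM (5 in the fit described) and 3 to 5 at 5 mM (4), and the effectors 13 to 24 (19) and 11 to 19 (15), and every count for glucose or the interaction was 0. For the other Eph and ephrin genes at 25 mM the count of 2 was 1 with a pseudocount of 1, no filter, the 60th percentile, quantile normalization, median centring, only the arrays compared, the replicate block, the 18S reading as a block and only the high-18S cultures, 4 with eBayes without trend, and 1 to 3 with single cultures left out. At 5 mM it was 1 with only the high-18S cultures. The replicate numbers did not pair the cultures: same-numbered cultures correlated, as deviations from group means, at a median of -0.03 on MA (3 of 18 over 0.1) and -0.04 on MB (2 of 18), and apart from that count of 1 the replicate block changed no call of the 9 genes. Median centring moved the median change of all genes at 25 mM to 0.06, against -0.11, and that in GM to 0.12, against -0.01. Besides those read from another probe set, the changes that turned sign were not called in the fit described. They ran there from -0.23 (SE 0.22) for glucose in DM of Epha2 to 0.23 (SE 0.41) for glucose in GM of Efna5. Epha7 at 25 mM, DM against GM, was 0.089 with a pseudocount of 1, 0.14 by quantile normalization, 0.095 by median centring, 0.047 with the 18S block, 0.021 in high-18S cultures and -0.69 to 0.33 with cultures left out. Its glucose change in GM was 0.0055, 0.090, 0.055, 0.049 and 0.10 in the same order, and -0.76 to 0.26 with cultures left out. The glucose change in GM of Epha1 was -0.053 by quantile normalization and -0.031 to 0.066 with cultures left out, and that of Efna5 was -0.41 with the 18S block and -0.20 in high-18S cultures. The interaction of Efna1 was -0.016 with a pseudocount of 64, -0.10 by quantile normalization, -0.16 by median centring, -0.30 with the 18S block, -0.31 in high-18S cultures and -0.19 to 0.18 with cultures left out. That of Efnb2 was 0.047 with a pseudocount of 1, 0.24 with the 18S block and -0.32 to 0.22 with cultures left out, and that of Epha1 -0.029 by median centring. With cultures left out the glucose change in DM ran from -0.10 to 0.27 for Efna1 and from -0.44 to 0.020 for Epha2, and that in GM from -0.036 to 0.26 for Efna1. With no filter Efna5 was read from its dim probe set on MA, at 0.053 for DM against GM at 25 mM, 0.22 at 5 mM, 0.26 for glucose in DM and 0.17 for the interaction. The second probe set of Epha1 gave -0.23 for glucose in DM and -0.41 for the interaction, and that of Efnb2 0.020 at 25 mM. Apart from these constructions the cause was not tested.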

Other observations

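A dim probe set of Epha4 on MB, 1439757_s_at, noticed after its values were seen, had the media apart in opposite directions at the 2 glucose levels. It read 49.4, 96.5 and 83.6 in DM at 5 mM, against 13.8, 6.77 and 16.3 in GM at 5 mM. It read 10.5, 10.8 and 22.3 in DM at 25 mM, against 107, 148 and 74.3 in GM at 25 mM. Its mean lay below the filter. With no filter limma gave 1.56 (SE 0.47, adjusted p = 0.0881) at 5 mM, -1.89 (SE 0.47, adjusted p = 0.0245) at 25 mM and an interaction of 3.45 (SE 0.66, adjusted p = 0.137), which was not called. The other Epha4 probe set on MB above the filter, 1429021_at, averaged 160.3 ± 10.8 in DM against 159 ± 68.5 in GM at 5 mM and 62.6 ± 31.0 in DM against 102 ± 5.55 in GM at 25 mM (SD, n = 3 each), with an interaction of 0.73 (SE 0.60), not called.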
